A study of Mus musculus with 18 samples.

Results

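Astrocytes clear GABA, the main inhibitory transmitter of the forebrain, and carry receptors for it, and 8 genes of that machinery were read here out of the 55291 gene symbols in the count tables. They were chosen by symbol: the plasma membrane GABA transporters Slc6a11 (GAT-3) and Slc6a13 (GAT-2), the breakdown enzymes Abat and Aldh5a1, the monoamine oxidase Maob, the GABA-B receptor subunits Gabbr1 and Gabbr2, and Gabrg1, which encodes the gamma-1 subunit of the GABA-A receptor. All 8 symbols were found in all 18 libraries. The mice were male C57BL/6J animals (genotype WT in the labels), 6 weeks old when the virus was injected. Every group, controls included, received an AAV carrying EGFP-Rpl10a under the astrocyte promoter GfaABC1D in the right hippocampus. This ribosomal protein tag lets ribosomes of the infected cells be pulled down with a GFP antibody, and the RNA bound to them is the IP library, whereas input is RNA of the same homogenate before the pulldown. AAV control mice received only the virus and were taken 2 weeks later. KA mice received 50 nL of 20 mM kainic acid, a glutamate receptor agonist that starts seizures, 2 weeks after the virus. RNA was collected 14 days after kainic acid, so that KA and AAV control also differ in time since the virus and in age at collection. PBS mice received the vehicle, and their collection time is not given in the sources used here. Each of the 3 conditions had 3 samples, each pooling the right hippocampi of 3 or 4 mice, and each sample gave 1 IP and 1 input library.

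GABA released at synapses is taken up by Slc6a family transporters, of which Slc6a11 is the classic astrocyte form in the brain. Inside the cell Abat, the GABA transaminase, turns GABA into succinic semialdehyde, and Aldh5a1 oxidises that to succinate for the citric acid cycle. Besides synthesis from glutamate by Gad1 and Gad2, GABA can be made from putrescine through Maob, a route described in reactive astrocytes. The GABA-B receptor is an obligate dimer in which Gabbr1 binds GABA and Gabbr2 couples to G proteins.

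Totals ran from 7991681 to 16032180 counts per library. All 10 astrocyte markers that were checked (Aldh1l1, Aqp4, Gja1, Slc1a2, Slc1a3, Kcnj10, Gfap, S100b, Aldoc, Sox9) were higher in IP than in input in each condition by edgeR's quasi-likelihood test, as the label of hippocampal astrocytes implies. The AAV control and KA samples #1 and #2 were sequenced in run 1, sample #3 of both in run 2, and all PBS samples in run 3, so that run and PBS cannot be told apart. AAV control #3 stood apart from #1 and #2 of its group, and so did KA #3, the other sample of run 2. In AAV control IP the variance over counting noise was 92.1 and 101.7 for the pairs with #3 and 8.35 between #1 and #2. In KA IP these values were 76.8, 62.7 and 9.59. The pairs of PBS IP, all from run 3, gave 55.6, 57.9 and 81.2, so in IP values of this size also occurred within 1 run. In input the pairs with #3 gave 82.2 and 108.9 in AAV control and 45.1 and 39.6 in KA, against 11.6, 19.8 and 7.22 for the PBS pairs. The choroid plexus transcript Ttr had 7 counts in the IP library of AAV control #3 and 692 and 429 in #1 and #2 of that group. Results that rest on AAV control #3 are given below with and without it.

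On the mouse build GRCm38 with the GENCODE vM21 annotation, Slc6a11 spans chr6:114131241-114249952 on the plus strand and Slc6a13 spans chr6:121300227-121337733 on the plus strand, with Slc6a12 starting 5342 bases beyond its end. Abat spans chr16:8513429-8621568 on the plus strand, Aldh5a1 chr13:24907579-24937661 on the minus strand and Maob chrX:16709282-16817366 on the minus strand. Gabbr1 spans chr17:37045966-37075067 on the plus strand, Gabbr2 chr4:46662305-46991873 on the minus strand and Gabrg1 chr5:70751047-70842617 on the minus strand. Aldh5a1 overlaps an antisense transcript (4932702P03Rik) and a divergent lncRNA (9330162012Rik), Slc6a11 a pseudogene (Gm8132) and Slc6a13 a miRNA gene (Gm24855), each on the opposite strand. The strand setting of the counting is not given in the sources used here, so reads of these partners could not be told apart from those of the members.

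RefSeq promoter sequences (GRCm38.p6) matched 6 of the 8 genes. The 250 bases before the start site are shown for Slc6a11, Aldh5a1 and Gabrg1, because these 3 genes fell together in KA astrocyte RNA and their upstream regions differ. Capitals mark letters of 3 short motifs searched on both strands: the NFI half-site TTGGC (or GCCAA), the STAT motif TTCNNNGAA and the SOX core ACAAT (or ATTGT), none of which overlap each other here.
Slc6a11 (chr6:114130991-114131240, plus strand): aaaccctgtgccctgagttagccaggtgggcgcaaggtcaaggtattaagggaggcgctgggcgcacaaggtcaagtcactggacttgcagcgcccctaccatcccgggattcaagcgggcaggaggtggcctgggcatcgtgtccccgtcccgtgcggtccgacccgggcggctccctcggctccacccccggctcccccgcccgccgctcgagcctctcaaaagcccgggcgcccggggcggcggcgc
Aldh5a1 (chr13:24937662-24937911, minus strand): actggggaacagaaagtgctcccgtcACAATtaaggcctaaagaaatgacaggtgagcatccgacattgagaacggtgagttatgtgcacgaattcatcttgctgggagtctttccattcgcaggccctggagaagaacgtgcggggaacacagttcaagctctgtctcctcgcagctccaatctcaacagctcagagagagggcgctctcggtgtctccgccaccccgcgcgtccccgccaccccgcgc
Gabrg1 (chr5:70842618-70842867, minus strand): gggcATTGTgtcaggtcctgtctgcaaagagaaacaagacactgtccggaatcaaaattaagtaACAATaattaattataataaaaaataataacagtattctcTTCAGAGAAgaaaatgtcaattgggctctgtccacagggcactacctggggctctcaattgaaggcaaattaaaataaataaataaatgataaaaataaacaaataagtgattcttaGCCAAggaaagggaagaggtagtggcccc
The Slc6a11 window held 71.2% G and C and none of the motifs. The Gabrg1 window held 35.6% G and C with 1 NFI half-site 29 bases upstream of the start, 1 STAT motif at 146 bases and SOX cores at 186 and 246 bases. Aldh5a1 lay between, with 57.2% G and C and 1 SOX core at 224 bases. Of 32851 promoter windows of this length, 41.5% held the NFI half-site, 7.02% the STAT motif and 27.7% the SOX core. Matches of the NFI half-site and the SOX core are therefore common, those of the STAT motif less so, and no site was tested.

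In IP, the RNA bound to astrocyte ribosomes, 5 of the 8 genes were lower in KA than in both controls: Slc6a11, Abat, Aldh5a1, Maob and Gabrg1. Gabbr1 missed the threshold against both controls, and Gabbr2 alone was higher, against AAV control only. Slc6a13 was close to the detection limit. The levels are given as FPKM (reads scaled by transcript length and by library size), which allows genes to be compared per length, and the tests as log2 fold changes of counts by edgeR's quasi-likelihood test with Benjamini-Hochberg adjustment over all genes above 1 FPKM in every library compared. A gene passed at an adjusted p under 0.05, and was a differentially expressed gene (DEG) if it also changed by at least 1 on the log2 scale.

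**Figure D1:**
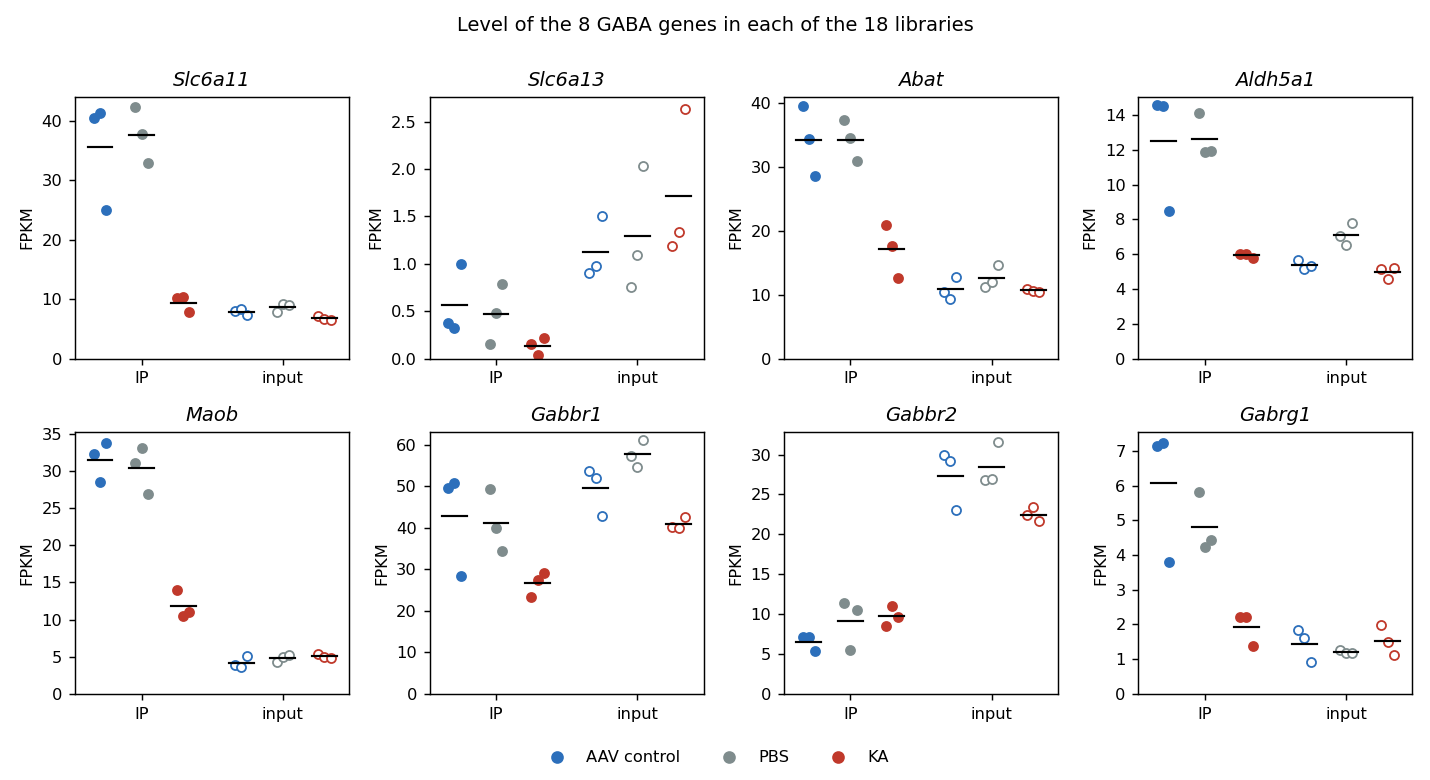
Each panel plots 1 gene, with FPKM on the y axis and the 3 libraries of each condition as points (filled, IP; open, input; black bars, means). The KA points for Slc6a11, Abat, Aldh5a1, Maob and Gabrg1 lie below all AAV control and PBS points in IP, and closer to them in input.

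Slc6a11, the astrocyte GABA transporter, had 10.1, 10.3 and 7.75 FPKM in the 3 KA IP libraries, against 40.5, 41.4 and 24.96 in AAV control IP and 42.3, 37.7 and 33.0 in PBS IP. The highest KA library was far below the lowest control library, so the groups did not overlap. Its log2 fold change was -1.86 (SE 0.20, n = 3 per group, adjusted p = 0.00108 by edgeR) against AAV control, which is 3.63-fold lower, and -2.02 (SE 0.20, adjusted p = 6.61e-05 by edgeR) against PBS. In input it had 7.17, 6.65 and 6.54 FPKM in KA, 8.06, 8.38 and 7.24 in AAV control and 7.75, 9.09 and 8.99 in PBS. There the KA values were again the lowest, but by much less. The log2 fold change in input was -0.21 (SE 0.12, adjusted p = 0.425 by edgeR) against AAV control and -0.35 (SE 0.10, adjusted p = 0.0235 by edgeR) against PBS. In order of mean level the gene stood at 37.7 ± 4.66 FPKM (SD, n = 3) in PBS IP and 35.6 ± 9.23 in AAV control IP, which overlapped, then at 9.39 ± 1.42 in KA IP, which overlapped with PBS input at 8.61 ± 0.751. As with every gene here, fewer infected astrocytes and less RNA per astrocyte cannot be told apart in pooled tissue.

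Slc6a13, a GABA transporter best known from meninges, liver and kidney, was at 0.155, 0.0331 and 0.220 FPKM in KA IP (5, 1 and 7 counts). It was at 0.371, 0.324 and 0.994 FPKM in AAV control IP and 0.150, 0.482 and 0.787 in PBS IP, so the KA and PBS libraries overlapped and the KA and AAV control libraries did not. It did not reach 1 FPKM in any IP library, nor in 2 AAV control input libraries and 1 PBS input library, so the filter on FPKM kept it out of all comparisons. In input it was higher, at 1.19, 1.34 and 2.63 FPKM in KA, 0.905, 0.974 and 1.51 in AAV control and 0.754, 1.09 and 2.03 in PBS, and all 3 groups overlapped. The 6 meningeal fibroblast markers moved in the same places: their summed level was 0.670 to 1.71 FPKM over the IP libraries and 5.83 to 15.6 FPKM over the input libraries, and their part in the Slc6a13 values was not tested.

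Abat, the GABA transaminase, was at 21.0, 17.7 and 12.6 FPKM in KA IP, 39.5, 34.3 and 28.6 in AAV control IP and 37.3, 34.5 and 30.8 in PBS IP. All KA values lay under all control values, with a log2 fold change of -0.95 (SE 0.20, adjusted p = 0.0142 by edgeR) against AAV control and -1.02 (SE 0.22, adjusted p = 0.00476 by edgeR) against PBS, so it was a DEG only in the second comparison, a difference that was not itself tested. The call against AAV control was lost without KA IP #2 (adjusted p = 0.0686 by edgeR) or AAV control IP #1 (0.0542). In input the means were 10.7 ± 0.204 FPKM (SD, n = 3) in KA, 10.8 ± 1.80 in AAV control and 12.6 ± 1.81 in PBS, and neither comparison passed (adjusted p = 0.949 and 0.082 by edgeR).

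Aldh5a1, the succinic semialdehyde dehydrogenase that acts after Abat, was at 5.996, 6.04 and 5.77 FPKM in KA IP, with the 3 libraries close together. AAV control IP had 14.6, 14.5 and 8.50 FPKM, the last in sample #3, and PBS IP had 14.1, 11.9 and 11.9. The log2 fold change was -1.0 (SE 0.20, adjusted p = 0.0122 by edgeR) against AAV control and -1.09 (SE 0.17, adjusted p = 0.00103 by edgeR) against PBS. The first call was lost without KA IP #1 (adjusted p = 0.0589 by edgeR), KA IP #2 (0.0602) or AAV control IP #2 (0.0505). In input it was at 5.14, 4.55 and 5.21 FPKM in KA, 5.65, 5.14 and 5.31 in AAV control and 7.05, 6.52 and 7.78 in PBS. There it was lower in KA than in PBS, with a log2 fold change of -0.52 (SE 0.12, adjusted p = 0.00898 by edgeR), while KA and AAV control overlapped (-0.10, adjusted p = 0.779 by edgeR).

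Maob, the monoamine oxidase of the putrescine route, was at 13.9, 10.4 and 11.1 FPKM in KA IP, 32.2, 28.5 and 33.7 in AAV control IP and 31.1, 33.1 and 26.9 in PBS IP. It was lower in every KA library than in any control library, with AAV control #3 the highest of its group. By edgeR the log2 fold change was -1.37 (SE 0.19, adjusted p = 0.00286 by edgeR) against AAV control and -1.38 (SE 0.20, adjusted p = 0.000721 by edgeR) against PBS. In input the means were 5.04 ± 0.237 FPKM (SD, n = 3) in KA, 4.2 ± 0.783 in AAV control and 4.8 ± 0.499 in PBS, with log2 fold changes of 0.25 (95% interval -0.23 to 0.72) and 0.06 (95% interval -0.23 to 0.36), neither past the threshold.

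Gabbr1, the GABA-binding subunit of the GABA-B receptor, was the member with the highest level in input. In IP it was at 23.4, 27.4 and 29.0 FPKM in KA, 49.6, 50.7 and 28.4 in AAV control and 49.3, 40.0 and 34.3 in PBS. KA overlapped with AAV control only through its sample #3. The log2 fold change was -0.61 (SE 0.24, adjusted p = 0.116 by edgeR) against AAV control and -0.63 (SE 0.24, adjusted p = 0.058 by edgeR) against PBS. Without AAV control IP #3 the first became -0.79 with an adjusted p of 0.0147 by edgeR, within run 1 alone it was -0.92 (adjusted p = 9.3e-05 by edgeR), and with run as a covariate it was -0.59 (adjusted p = 0.048 by edgeR). In these fits 3369 of 9953, 4823 of 10474 and 3914 of 9729 genes passed. They were the only 3 of 13 alternatives in which Gabbr1 passed against AAV control, and leaving out other libraries gave adjusted p up to 0.326 by edgeR. Against PBS it passed in 3 of 11 alternatives, among them DESeq2 at -0.63 with an adjusted p of 0.0295. In input Gabbr1 was at 40.1, 39.9 and 42.7 FPKM in KA, 53.7, 51.9 and 42.8 in AAV control and 57.4, 54.6 and 61.1 in PBS, with log2 fold changes of -0.26 (SE 0.15, adjusted p = 0.422 by edgeR) and -0.50 (SE 0.12, adjusted p = 0.00958 by edgeR).

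Gabbr2, the signalling subunit, moved the other way in IP. It was at 8.46, 10.97 and 9.69 FPKM in KA IP, all above the 7.11, 7.16 and 5.41 FPKM of AAV control IP, but within the 11.4, 5.5 and 10.5 FPKM of PBS IP. The log2 fold change was 0.63 (SE 0.17, adjusted p = 0.0373 by edgeR) against AAV control and 0.12 (95% interval -0.39 to 0.62, adjusted p = 0.708 by edgeR) against PBS. The first call was lost without KA IP #2 (adjusted p = 0.142 by edgeR), without KA IP #3 (0.0957), without AAV control IP #1 (0.102) or without AAV control IP #2 (0.098). In input the order was reversed, with 22.4, 23.4 and 21.6 FPKM in KA, 29.9, 29.1 and 23.0 in AAV control and 26.9, 27.0 and 31.5 in PBS, and it fell against PBS (log2 fold change -0.35, SE 0.09, adjusted p = 0.0201 by edgeR). Against AAV control 2 of 6 neuronal markers were higher in KA IP and 0 lower, beside 10.4% of all genes tested higher. These were Snap25 and Slc17a7, at log2 fold changes of 1.41 and 1.48. Against PBS 3 of 6 were higher and 0 lower, with a median of 0.46, beside 18.2% of all genes, whereas Gabbr2 did not pass. The 6 markers summed to 222.3 to 289.3 FPKM in KA IP, 106.8 to 147.7 in AAV control IP and 114.4 to 194.9 in PBS IP. None of the 6 was at 0, and their part in the Gabbr2 values was not tested.

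Within each IP library the 2 subunits therefore stood in different proportion, which needs no scaling between libraries. Gabbr1 was 2.76, 2.49 and 2.99 times Gabbr2 in KA IP, 6.98, 7.08 and 5.25 times in AAV control IP and 4.35, 7.28 and 3.27 times in PBS IP. KA had the lowest ratios, without overlap with either control. In input the ratio was 1.82 ± 0.137 (SD, n = 3) in KA, 1.81 ± 0.0419 in AAV control and 2.03 ± 0.0986 in PBS. With 3 samples against 3 an exact permutation test of such a ratio cannot pass the threshold, so none is given.

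Gabrg1, a GABA-A subunit with a restricted distribution that includes astrocytes, was at 2.23, 2.22 and 1.38 FPKM in KA IP, 7.15, 7.23 and 3.81 in AAV control IP and 5.81, 4.23 and 4.43 in PBS IP. No KA library reached the lowest control. Its log2 fold change was -1.58 (SE 0.25, adjusted p = 0.00525 by edgeR) against AAV control and -1.33 (SE 0.21, adjusted p = 0.00116 by edgeR) against PBS. In input it was at 1.97, 1.51 and 1.13 FPKM in KA, 1.83, 1.60 and 0.929 in AAV control and 1.28, 1.17 and 1.19 in PBS. The AAV control input #3 value kept it out of the tests on AAV control input, and against PBS its log2 fold change in input was 0.32 (95% interval -0.11 to 0.75, adjusted p = 0.244 by edgeR).

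**Figure D2:**
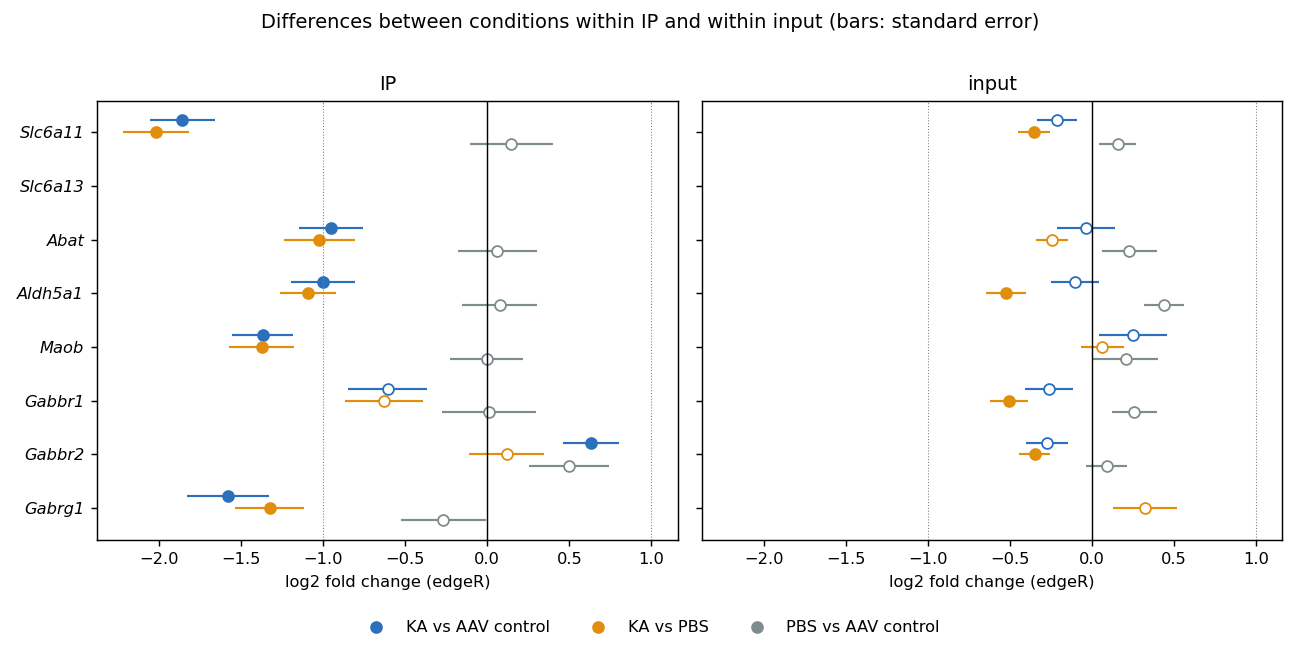
Log2 fold changes by edgeR (x axis) for the genes tested, with standard errors, in IP (left) and input (right); filled points passed at an adjusted p under 0.05 and dotted lines mark 1 on the log2 scale. In IP, 5 genes lie at -0.95 or below in both comparisons with KA, while in input all values lie between -0.52 and 0.44.

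Of the 7 genes tested in IP, 5 were lower and 1 higher in KA than in AAV control, and 4 of the 5 were DEGs, while 20.1% of all 9729 genes tested passed, 9.74% lower and 10.4% higher. Of the same 7, 5 lay wholly below AAV control in all libraries, as 20.2% of all genes did, and DEGs that were lower made up 5.22%. Their median log2 fold change was -1.0, against -0.02 over all genes tested. KA and AAV control samples of the same number, which also shared a run, deviated together, so a fit with the sample number as a block was made. It passed 3356 genes in place of 1960, with no change among the members. Against PBS, 5 of 7 were lower and none higher, where 37% of 9847 genes passed and 18.9% were lower. All 5 were DEGs, against 9.34% of genes, and with Gabbr1 6 of 7 lay wholly below PBS, as 23.3% of genes did. The 2 comparisons share the KA libraries. PBS and AAV control, the comparison of the controls, did not separate any of the 7 members in IP. The background there was 0% of 10667 genes, with 10.8% at an unadjusted p under 0.05, 16 genes by DESeq2 and 0 by limma-voom. The intervals were wide, from -0.42 to 0.71 on the log2 scale for Slc6a11, so equality of the controls was not shown.

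In input, 0 of 6 members passed between KA and AAV control (edgeR, also 0 by DESeq2 and limma-voom), against a background of 4.49% of 10809 genes (17.9% at an unadjusted p under 0.05). None of the 6 had an unadjusted p under 0.05, as the 95% intervals of all 6 held 0. Within run 1 alone, which held only samples #1 and #2 of each group, 3 of 7 members passed, where 4781 of 11489 genes did. These were Gabbr1 at -0.40, Gabbr2 at -0.37 and Maob at 0.46. Between KA and PBS, 4 of 7 were lower (Slc6a11, Aldh5a1, Gabbr1 and Gabbr2) and none was a DEG, against 27.7% of 10849 genes passing and 12.2% lower. Without KA input #1 only Aldh5a1 of these 4 passed, and without KA input #2, PBS input #2 or PBS input #3 only Aldh5a1 and Gabbr1 did. PBS and AAV control did not differ in input for any of 6 members at a background of 0% of 10924 genes (8.25% at an unadjusted p under 0.05, 30 genes by DESeq2 and 0 by limma-voom). Aldh5a1 was the only one of the 6 whose interval excluded 0, at a log2 fold change of 0.44 (95% interval 0.16 to 0.72). Without AAV control input #3, Abat, Aldh5a1 and Maob were higher in PBS than in AAV control, among 4076 genes that then passed.

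The question of how far these transcripts belong to the infected astrocytes was addressed by the ratio of IP to input in the same homogenate. In AAV control, Maob had ratios of FPKM of 8.15, 8.0 and 6.64, Slc6a11 of 5.03, 4.94 and 3.45, and Gabrg1 of 3.91, 4.53 and 4.10. Abat stood at 3.24 ± 0.869 (SD, n = 3) and Aldh5a1 at 2.33 ± 0.645. Gabbr1 was near parity at 0.855 ± 0.168, and Gabbr2 was depleted at 0.239 ± 0.00575. In the tests Slc6a11, Abat, Aldh5a1 and Maob were higher in IP and Gabbr2 lower, 5 of 6 members, against 39.7% of 9961 genes (3959, or 6102 with the homogenate as a block). PBS gave the same order, from Maob at 6.39 ± 1.11 and Slc6a11 at 4.42 ± 0.928 down to Gabbr2 at 0.320 ± 0.110, with 6 of 7 members past the threshold, Gabrg1 now included, against 56.3% of 10401 genes. FPKM sets the median of all genes at -0.12 in AAV control, -0.08 in PBS and -0.17 in KA on the log2 scale of IP over input, where the edgeR scaling sets it near 0, so ratios of FPKM read slightly low.

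**Figure D3:**
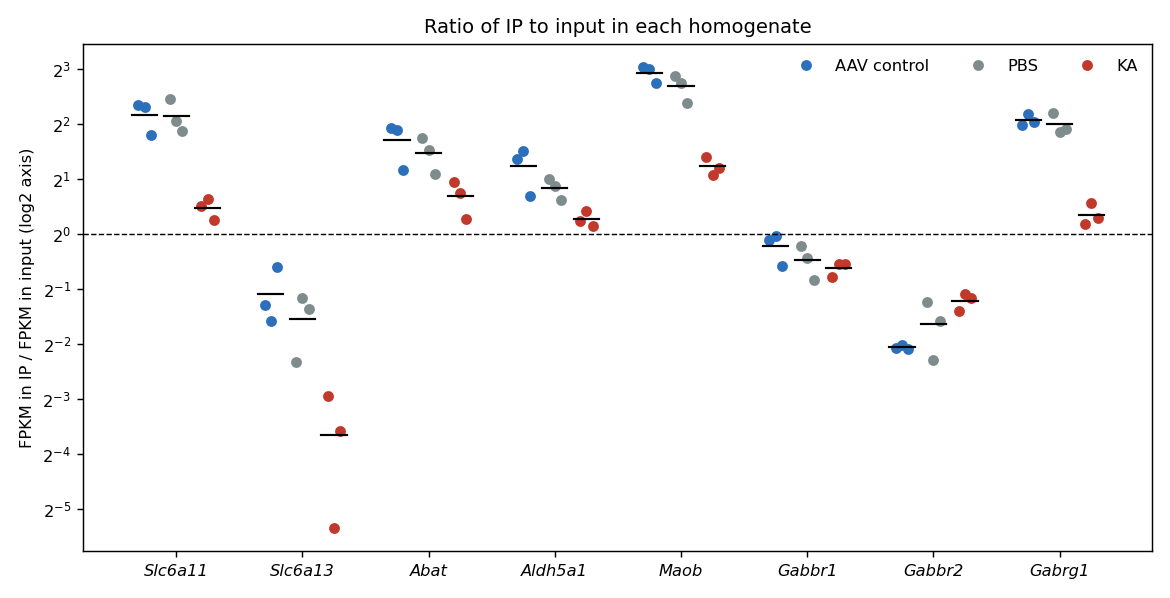
FPKM in IP divided by FPKM in input of the same homogenate (y axis, log2 scale) for 3 homogenates of each condition, with means as black bars and parity as a dashed line. In KA the ratios of Slc6a11, Abat, Aldh5a1, Maob and Gabrg1 lie below those of both controls and those of Gabbr2 above AAV control.

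In KA the mean ratios of 6 of the 8 members lay closer to parity than in either control, while those of Gabbr1 and Slc6a13 lay further below it. Over all genes, DEGs higher and lower in IP were 8.11% and 4.51% in KA, 13.3% and 13.1% in AAV control and 14.8% and 12.3% in PBS. The edgeR median of the astrocyte markers was 2.0 in KA and 3.28 in AAV control, and of the neuron markers -1.05 and -2.41. The oligodendrocyte median changed sign, at 1.41 in KA against -0.28 in AAV control and -0.60 in PBS. In KA 6 of 6 oligodendrocyte markers were higher in IP, where 19.1% of all genes tested were. Medians were -3.37, -2.04 and -1.77 for microglia markers in KA, AAV control and PBS, and -3.47, -1.73 and -1.71 for endothelial markers. The 1 precursor marker tested stood at 1.19, 1.02 and 0.49. Slc6a11 fell to 1.41, 1.55 and 1.18, Maob to 2.62, 2.10 and 2.28, and Gabrg1 to 1.13, 1.47 and 1.22, none of which reached the lowest control ratio. Abat stood at 1.60 ± 0.366 (SD, n = 3), Aldh5a1 at 1.2 ± 0.113 and Gabbr1 at 0.650 ± 0.0581, while Gabbr2 was at 0.432 ± 0.0473. Slc6a13 had a ratio under 1 in every homogenate, at 0.0795 ± 0.0529 in KA, 0.468 ± 0.171 in AAV control and 0.343 ± 0.128 in PBS. Still, Slc6a11 (log2 fold change 0.68), Abat (0.88), Aldh5a1 (0.47) and Maob (1.44) passed as higher in KA IP than in KA input and Gabbr2 (-0.99) as lower, 5 of 7, against 34.4% of 10098 genes. IP and input come from 1 homogenate, and with it as a block Gabrg1 (0.55, adjusted p = 0.00862 by edgeR) and Gabbr1 (-0.41, adjusted p = 0.0047 by edgeR) also passed. The Aldh5a1 call was lost on leaving out KA IP #1, KA IP #2, KA input #1 or KA input #2.

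The interaction of condition and library kind tests whether KA changed IP and input differently. With AAV control as the baseline 5 of 6 members passed, against 13.2% of 9180 genes (1210, or 3286 with the homogenate as a block): Slc6a11 at -1.63 (SE 0.21), Maob at -1.60 (SE 0.26), Abat at -0.90 (SE 0.25) and Aldh5a1 at -0.88 (SE 0.23) had a lower KA effect in IP than in input, and Gabbr2 at 0.93 (SE 0.20) a higher one. The KA effects of the first 4 in input were -0.21, 0.25, -0.03 and -0.10 on the log2 scale, none of which passed. The Abat and Aldh5a1 calls were lost when any of KA #1 to #3 or AAV control #1 or #2 was left out, and the Gabbr2 call without KA #2, AAV control #1 or AAV control #2. With PBS as the baseline 4 of 7 passed, against 25.5% of 9305 genes: Slc6a11 at -1.68 (SE 0.22), Gabrg1 at -1.66 (SE 0.30), Maob at -1.45 (SE 0.24) and Abat at -0.79 (SE 0.24). Aldh5a1 at -0.58 missed (adjusted p = 0.051 by edgeR) and passed with the homogenate as a block (adjusted p = 0.0237). The Abat call was lost without KA #2, KA #3, PBS #1 or PBS #2. Gabbr1 passed under neither baseline, at -0.32 and -0.14. Cell type markers shifted too in this test. Under each baseline 6 of 10 astrocyte markers were lower and 0 higher, with medians of -1.34 (AAV control) and -1.30 (PBS). Of all genes tested 5.99% and 14.7% were lower. Of the neuron markers 4 of 6 were higher and 0 lower, with medians of 1.17 and 0.98, where 7.19% and 10.8% of all genes were higher. The part of these shifts in the members' values was not tested.

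Astrocyte markers did not move as a single block beside these genes. Of the 10 in KA IP, Gja1 (-1.42), Slc1a2 (-1.42) and Slc1a3 (-1.19) were lower than in AAV control, and Gfap (2.49) and Aqp4 (0.99) higher, with a median log2 fold change of -0.48. Of all genes tested there 10.4% were higher and 9.74% lower. In input 5 of 10 were higher and 0 lower, with a median of 0.86, where 3.54% of all genes tested were higher. Their summed level was 6506.9 to 7945.3 FPKM in KA IP, 6651.4 to 9906.0 in AAV control IP and 6910.8 to 12054.8 in PBS IP, and 1418.0 to 1453.3 in KA input against 546.2 to 911.7 in AAV control input and 797.5 to 943.2 in PBS input. Per geometric mean of the 10 markers Slc6a11 was 0.0423 ± 0.00301 in KA IP (SD, n = 3), 0.128 ± 0.0189 in AAV control IP and 0.149 ± 0.0198 in PBS IP, and in input 0.103 ± 0.00854, 0.267 ± 0.0275 and 0.272 ± 0.00873. On that scale Slc6a11 was lower in KA in both kinds of library without overlap. Maob behaved likewise, at 0.0535 ± 0.00769, 0.117 ± 0.0243 and 0.120 ± 0.0127 in IP and at 0.0762 ± 0.00622, 0.141 ± 0.0231 and 0.152 ± 0.00886 in input. In input the markers that set this scale were themselves higher in KA, 5 of 10 against AAV control and 8 of 10 against PBS. Of all genes tested 3.54% and 15.5% were higher. Without that scale, the input log2 fold changes against AAV control and PBS were -0.21 and -0.35 for Slc6a11 and 0.25 and 0.06 for Maob. Only that of Slc6a11 against PBS passed. Other cell types shifted too. All 6 oligodendrocyte markers were higher in KA IP than in PBS IP and 2 of 6 than in AAV control IP, beside 18.2% and 10.4% of all genes tested. Their sums were 1279.0 to 2439.3 FPKM in KA IP, 246.8 to 1037.4 in AAV control IP and 276.6 to 549.5 in PBS IP. All 6 microglia markers were higher in KA input than in either control input, beside 3.54% (AAV control) and 15.5% (PBS) of all genes tested. Their sums were 642.8 to 1161.8 FPKM in KA, 71.6 to 110.3 in AAV control and 83.5 to 89.4 in PBS. No marker of these lists was at 0 in all libraries of a group, and the part of these cells in the members' values was not tested.

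Of 3 other transporters of the family tested in IP, 1 was higher and 1 lower in KA against each control, and the lower one was a DEG in both comparisons. Of all genes tested, 20.1% passed against AAV control and 37% against PBS. The higher one was the creatine transporter Slc6a8, at log2 fold changes of 0.64 (adjusted p = 0.0319 by edgeR) against AAV control and 0.46 (adjusted p = 0.0369 by edgeR) against PBS. The betaine and GABA transporter Slc6a12 had at most 5 counts in any IP library.

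**Figure D4:**
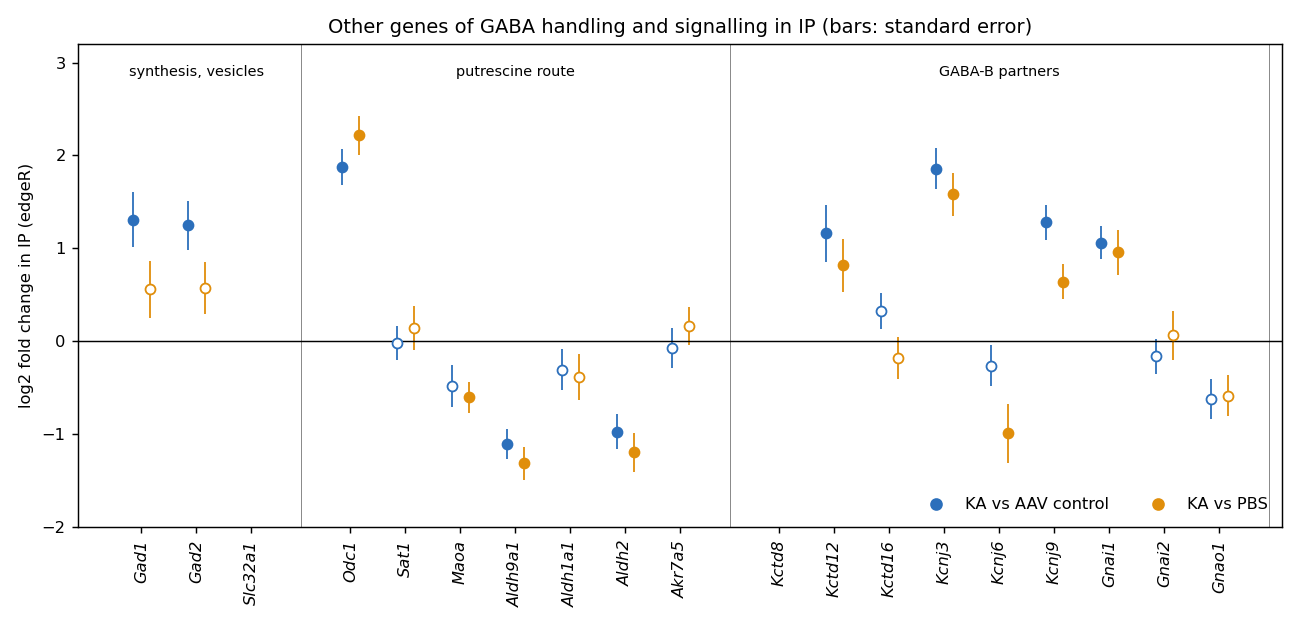
Log2 fold changes in IP by edgeR (y axis) with standard errors for other genes of GABA handling and signalling, in 3 groups set by function; filled points passed at an adjusted p under 0.05, and genes without a point were not tested. Against AAV control Aldh9a1 is the lowest at -1.11 and Odc1 the highest at 1.88.

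On the side of synthesis, Gad1 and Gad2, the glutamate decarboxylases of GABA neurons, were both higher in KA IP than in AAV control IP, at log2 fold changes of 1.31 (adjusted p = 0.02 by edgeR) and 1.25 (adjusted p = 0.0156 by edgeR). Gad1 was at 7.35, 10.8 and 15.1 FPKM in KA IP, 4.70, 5.04 and 4.53 in AAV control IP and 10.5, 5.49 and 7.22 in PBS IP. Against PBS neither passed (0.56, adjusted p = 0.175, and 0.57, adjusted p = 0.129 by edgeR). Both stayed below their input level in AAV control and PBS, where 2 of 2 passed as lower in IP, beside 20.3% and 27.7% of all genes tested. Slc32a1, the vesicular GABA transporter, stayed under 1 FPKM in every IP library. The 6 GABA neuron markers summed to 295.7 to 3059.0 FPKM in KA IP, 202.1 to 294.0 in AAV control IP and 206.2 to 506.5 in PBS IP, so KA and PBS overlapped. The markers did not move together: against AAV control Npy (4.17) and Pvalb (1.57) were higher and Sst (-3.36) lower on the log2 scale. Their part in the Gad1 and Gad2 values was not tested.

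The putrescine route split. Odc1, the ornithine decarboxylase that makes putrescine, was at 135.8, 113.9 and 86.0 FPKM in KA IP, 34.7, 34.0 and 25.8 in AAV control IP and 25.5, 19.7 and 27.1 in PBS IP, with log2 fold changes of 1.88 and 2.22 (adjusted p = 0.000972 and 5e-05 by edgeR). It also rose in input, by 0.89 and 1.04 on the log2 scale. Downstream of Maob, Aldh9a1, an aldehyde dehydrogenase that oxidises gamma-aminobutyraldehyde, fell by 1.11 and 1.31 on the log2 scale, and Aldh2 fell by 0.97 and 1.19. In all, 1 of 7 genes of the route was higher and 2 lower against AAV control in IP, with a median of -0.30, and 1 higher and 3 lower against PBS, with a median of -0.39. Those 3 and 4 called genes of 7 stand beside 20.1% and 37% of all genes tested. All 7 were higher in IP than in input in each condition, where 19.4% of all genes tested were higher in AAV control, 28.6% in PBS and 19.1% in KA.

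Of the 8 GABA-B partners and effectors tested, 4 were higher in KA IP than in AAV control IP and 0 lower, with a median log2 fold change of 0.69, where 10.4% of all genes tested were higher. The potassium channel subunits Kcnj3 (1.86) and Kcnj9 (1.28), which GABA-B receptors open in neurons, the auxiliary subunit Kctd12 (1.16) and the G protein Gnai1 (1.06) made up the 4. Against PBS 4 were higher and 1 lower, where 37% of all genes tested passed. The 6 neuron markers moved in the same libraries, with 2 of 6 higher and a median of 0.77 against AAV control and 3 of 6 higher and a median of 0.46 against PBS. They summed to 222.3 to 289.3 FPKM in KA IP, 106.8 to 147.7 in AAV control IP and 114.4 to 194.9 in PBS IP, and their part in the values of the partners was not tested. Kcnj3 was at 15.8, 14.97 and 17.4 FPKM in KA IP, above all control IP libraries, and in input its log2 fold change was 0.13 (adjusted p = 0.751 by edgeR) against AAV control. In AAV control 6 of the 8 were lower in IP than in input, where 20.3% of all genes tested were lower.

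Over the 18 libraries and 12762 expressed genes, the patterns most like each member were described by Pearson's r of log2(FPKM + 1). These libraries share the contrast of IP and input, so high values are common and nothing follows about shared control. Slc6a11 was closest to Nwd1 (r = 0.990), Gm26512 and Aldh9a1, and Maob to Fermt2 (r = 0.993), Nkain4 and Eci2. Abat was closest to Pygb (r = 0.983), Aif1l and Slc20a2, Aldh5a1 to Lrrc75b (r = 0.973), 2900052N01Rik and Kifc3, and Gabrg1 to Sc5d (r = 0.988), Ttpa and Eps8. Among the closest to Gabbr1 were Tmem106b (r = 0.932) and Ncoa1, and to Gabbr2 Cyfip2 (r = 0.990) and Rab6b. Slc6a13, at its low level, was closest to Slc29a1 (r = 0.918), Pglyrp1 and Wdr45b.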

How the data were processed

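RNA from 9 IP and 9 input libraries (3 per condition) was sequenced by the authors in 3 runs, and reads were aligned to mm10 with STAR. The submitters' processing notes also name featureCounts and edgeR, without versions, and annotation, strand setting and multi-mapped reads are not given in the sources used here. The deposited count files hold raw counts per gene symbol, and the deposited FPKM files the authors' counts scaled by gene length and library size. Members, gene lists and motifs were chosen with earlier results of these data known. The 8 members were named in every comparison. Of each other list, Gad1, Gad2 and up to 3 genes with the largest change among those past the threshold in KA against AAV control in IP were named by rule, and the others after their values were seen. Likeness named the 3 genes with the highest r among genes above 1 FPKM in at least 9 libraries. Some genes that these rules name are not reported here.

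Counts were tested with edgeR 4.0.16 (quasi-likelihood, TMM, prior count 2, R 4.3.3) on genes above 1 FPKM in all libraries compared, with only the groups compared in each fit. The test was checked on simulated counts. limma 3.58.1 and DESeq2 1.42.0, RLE scaling, no FPKM filter, a replicate block, the run as covariate, run 1 alone and leaving out each library were alternatives. Pairing was checked by the correlation of deviations from group means. IP and input of 1 homogenate gave r of 0.155 to 0.752. KA and AAV control of the same number gave 0.348 to 0.551 in IP and 0.352 to 0.550 in input. KA and AAV control samples of the same number also shared a run, and no values are given for samples of unlike number. The check therefore cannot tell pairing by number from a shared run. PBS gave -0.294 to 0.354 with samples of the same number in the other groups. No 2 libraries of a group agreed within counting noise. Each sample pooled several mice, so p-values measure the spread between pools. Depth (7991681 to 16032180 counts) left 1 to 78 counts for Slc6a13 and 88 or more for each other member.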

Additional observations from a re-analysis of the deposited data

Results flagged for a closer look

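The difference of the KA effect between IP and input, tested by the interaction term in edgeR, passed for 9 combinations of gene and baseline. With AAV control as the baseline these were Slc6a11 (-1.63 on the log2 scale, adjusted p = 0.000666), Maob (-1.60, adjusted p = 0.00215), Gabbr2 (0.93, adjusted p = 0.0095), Aldh5a1 (-0.88, adjusted p = 0.0261) and Abat (-0.90, adjusted p = 0.0349). With PBS they were Slc6a11 (-1.68, adjusted p = 0.000223), Maob (-1.45, adjusted p = 0.00112), Gabrg1 (-1.66, adjusted p = 0.00173) and Abat (-0.79, adjusted p = 0.0263). Of all genes tested 13.2% and 25.5% passed, and under each baseline 6 of 10 astrocyte markers were lower and 4 of 6 neuron markers higher. Groups of 3 are too small for a search for single outlying samples.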

How the results depend on the processing

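Of the log2 fold changes of the members under the alternatives, 750 kept their direction and their side of the threshold, 42 lost the call, 21 gained it and 22 changed sign. Slc6a11, Maob and Gabrg1 were called in IP against both controls under every alternative run. Leaving out 1 library or sample moved the number of members called from 6 to between 3 (without KA IP #2) and 7 (without AAV control IP #3) for KA against AAV control in IP. In input it gave 0 to 1 for KA against AAV control (Gabbr2 without AAV control #3), 1 to 5 for KA against PBS and 0 to 3 for PBS against AAV control, and for the interaction with AAV control 2 to 6. In run 1 alone 3 of 7 members passed between KA and AAV control in input, where 4781 of 11489 genes did, and Abat stood at 0.13.

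Signs changed only for values that had not passed. Between PBS and AAV control in IP, no filter on FPKM gave -0.036 for Abat, -0.028 for Aldh5a1 and -0.085 for Gabbr1, and Gabbr1 was at -0.0020 with RLE size factors, -0.0019 with DESeq2 and -0.0029 with limma-voom. Leaving out libraries there gave -0.017 to 0.30 for Slc6a11, -0.063 to 0.20 for Abat, -0.10 to 0.19 for Aldh5a1, -0.19 to 0.15 for Maob and -0.18 to 0.19 for Gabbr1. It gave -0.088 to 0.31 for Gabbr2 between KA and PBS in IP, -0.16 to 0.17 for Abat between KA and AAV control in input, and -0.16 to 0.13 for Gabbr1 between IP and input in AAV control. Without the filter Gabbr1 had an interaction of 0.12 with PBS as the baseline. That fit moved the median of the genes tested to 0.19 for KA against PBS in IP and to 0.20 for this interaction, so its values are to be read against those medians. Without the filter Slc6a13 passed as lower in KA than AAV control in IP (-1.90, adjusted p = 0.0361 by edgeR), in IP than input in PBS (-1.47, adjusted p = 0.00146) and in KA (-3.32, adjusted p = 1.09e-11), and in the interactions with AAV control (-2.48, adjusted p = 0.00633) and PBS (-1.83, adjusted p = 0.0415), and missed the threshold in the other 6 comparisons. In that fit the interactions of Abat and Aldh5a1 with AAV control and of Abat with PBS did not pass.

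The replicate block changed no call of a member other than Gabbr1 and Gabrg1 between IP and input in KA and Aldh5a1 in the interaction with PBS. Over all genes, between KA and AAV control 1960 genes in IP became 3933 without the filter, 3914 with run as a covariate, 4823 in run 1 alone, and 843 (without KA IP #2) to 3369 (without AAV control IP #3), and in input 485 became 1770, 878 with DESeq2, 1101 with the block, 1731, 4781, and 135 to 2643. Without AAV control #3, PBS and AAV control differed for 1122 genes in IP and 4076 in input, where 0 had. Without the filter these were 261 and 234, and KA against PBS went from 3647 to 7028 in IP and from 3006 to 4929 in input, and IP against input from 3959 to 6322 in AAV control, 5853 to 8789 in PBS and 3477 to 5753 in KA. The block gave 5336 in place of 3477 genes for IP against input in KA. Ratios from TMM-normalized CPM were higher than from FPKM, with 1.71 for Slc6a11, 1.98 for Abat, 1.49 for Aldh5a1, 2.90 for Maob, 0.810 for Gabbr1, 0.538 for Gabbr2 and 1.58 for Gabrg1 in KA, and 8.58 for Maob, 0.269 for Gabbr2 and 4.69 for Gabrg1 in AAV control. The cause of these shifts was not tested.

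The Slc6a13 values rest on 3 pools per group and 1 to 78 counts a library.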
